A study of Mus musculus with 2 samples.

Results

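The Bcl2 family decides whether a cell commits to apoptosis through its mitochondria. Bcl2, Bcl2l1 (Bcl-xL) and Mcl1 hold the pathway in check, Bax and Bak1 permeabilise the outer mitochondrial membrane, and the BH3-only proteins Bcl2l11 (Bim), Bbc3 (Puma), Pmaip1 (Noxa), Bad and Bid carry death signals to both. In the thymus the family sets how many developing T cells survive: interleukin-7 signalling sustains early thymocytes in part through Bcl2 and Mcl1, Bcl2l11 serves negative selection, and Bbc3 and Pmaip1 are targets of p53.

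These 10 genes were taken as the family's core members, and every probe set with a member as its single gene symbol was used. In all, 29 probe sets were found for 9 of the 10 genes, out of 18193 genes with a probe set in the series. The expression of Bax was not analysed here. The samples were lineage-marker-negative thymocytes of C57BL/6J mice, depleted with magnetic beads and described as cultured in standard medium, with 1 Affymetrix array titled DKO and 1 titled TKO. By the series' design text both genotypes were Cdkn2a-/- Ring1A-/- Ring1Bfl/fl and carried no LckCre (DKO) or carried LckCre (TKO), a recombinase active in T-lineage cells, so that the floxed Ring1B allele could recombine in TKO cells. The genotype field of the samples reads otherwise: knockout of Ring1A and Ring1B in DKO, with Cdkn2a lost in addition in TKO. Neither text gives a wild-type group, and the age of the mice, the number pooled and the time in culture are not given in the sources used here.

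Each genotype had 1 array, so there is no spread between animals, no test was possible, and higher and lower describe these 2 arrays only. A signal is a MAS5 intensity on a linear scale. A signal counted as measured at or above the array's median over all probe sets (68.8 on DKO, 71.8 on TKO), and a log2 ratio is TKO minus DKO. A gene is represented by its brightest probe set, and differences of at least 2-fold are counted. Log2 ratios of different probe sets of one gene had a robust SD of 0.21 over 4794 genes, which covers disagreement between probe sets and no error between RNA preparations or mice.

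The labels were checked on the targeted genes. Cdkn2a read 679 on DKO and 18.5 on TKO, Ring1 133 and 147, and Rnf2 (Ring1B) 4149 and 4384, so the Cdkn2a signal on the DKO array goes against the design text, and the Rnf2 signals against the samples' field and, on TKO, against both. Ring1, knocked out in both groups by either text, was also above the floor on both arrays. The sources do not say whether these probe sets fall inside the deleted exons, and one that falls outside checks nothing, so DKO and TKO below mean the arrays so labelled. Xist read 124 on DKO and 16502 on TKO, and the Y-linked Eif2s3y 1711 and 55.3, so the sex of the mice differed along with the label. Of the 6 measured T lineage markers, 5 had a log2 ratio below 0. Cd3g (22057 and 13607) and Thy1 (18527 and 12791) were high on both arrays, Cd5 was dimmer (311 and 298), and Cd2 was higher on TKO (1158 and 1846). Of the early double-negative markers, Il2ra (6536 and 3162) and Ptcra (4028 and 2564) were lower on TKO. Kit was near level (659 and 621) and Cd44 was higher (1061 and 2030.2). Of the double-positive markers, Cd4 was below the floor on both at 17.8 and 12.2, while Cd8a read 616 and 635 and Cd8b1 975 and 1079.7. All 6 measured B lineage markers were at least 2-fold higher on TKO (3.58% among all measured genes), with a summed signal of 5021 on DKO and 18489 on TKO. Pax5 among them was close to the floor on DKO, at 74.1, and its second measured probe set gave a log2 ratio of 0.24 with the floor applied. The 5 measured neutrophil markers summed to 2883 and 1484. The 6 macrophage and dendritic markers summed to 4602 on DKO and 15107 on TKO, with 3 of the 6 at least 2-fold higher. Most of both sums came from H2-Aa, at 3059 on DKO and 11611 on TKO, so the sums mainly follow that gene. The other markers past 2-fold were Csf1r (249 and 807) and Lyz2 (855 and 2131). The 3 measured probe sets of Csf1r had log2 ratios from 0.73 to 1.69. The erythroid marker Klf1 was below the floor on both arrays. Of the 4 thymic stroma markers, Foxn1 and Pdgfra were below it on both, while Epcam read 822 on DKO and 688 on TKO and Krt5 86.2 and 107. In RNA from a mixed sample, fewer cells of a type and less RNA per cell cannot be told apart, and the part of sex and of these other cells in the values that follow was not tested.

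Of the 9 members with probe sets, all were measured on both arrays, 1 was at least 2-fold lower on TKO (Bbc3), 0 were at least 2-fold higher and 8 were neither. Across all 11280 measured genes 0.532% were at least 2-fold lower and 3.58% at least 2-fold higher. The median log2 ratio of the 9 members was -0.12, beside -0.03 for all measured genes, and 7 of the 9 ratios were below 0, as were 53.5% of all measured genes. Counted by probe set, 25 of the 29 were measured, 15 of them with a log2 ratio below 0 and 10 above, against 52.8% below 0 among all measured probe sets with 1 gene, of which 0.51% were at least 2-fold lower. The other 4 probe sets, 3 of Bcl2l1 and 1 of Bak1, were below the floor on both arrays and have no ratio.

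**Figure D1:**
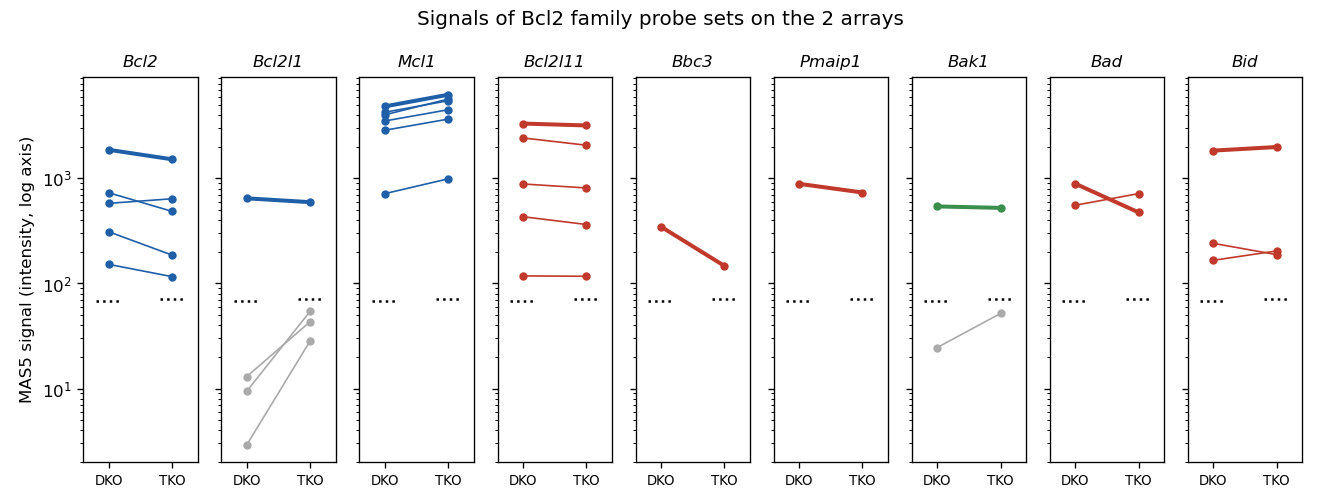
Signal of each Bcl2 family probe set on the DKO and TKO arrays (MAS5 intensity, log axis; 1 array each, no error bars). Each line joins 1 probe set across the arrays, the thick line is the gene's brightest probe set, grey lines are probe sets below the floor on both arrays, and dotted ticks mark the floors of 68.8 and 71.8. The Mcl1 lines all slope up, and the Bbc3 line slopes down from 347 to 147.

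The promoters of Bbc3 and Mcl1 are shown because Bbc3 is the member past 2-fold and Mcl1 the member whose probe sets all lay on the other side of 0. Polycomb repressive complex 1, to which Ring1A and Ring1B belong, is commonly found at CpG-rich promoters, so CG dinucleotides are in capitals. The sequences are the 250 bases before the most upstream RefSeq start of each gene in the promoter table, 5′ to 3′ on the gene's strand, build GRCm38.p6. The Bbc3 window is chr7:16309333-16309582 (+ strand) and the Mcl1 window is chr3:95658471-95658720 (+ strand).
Bbc3: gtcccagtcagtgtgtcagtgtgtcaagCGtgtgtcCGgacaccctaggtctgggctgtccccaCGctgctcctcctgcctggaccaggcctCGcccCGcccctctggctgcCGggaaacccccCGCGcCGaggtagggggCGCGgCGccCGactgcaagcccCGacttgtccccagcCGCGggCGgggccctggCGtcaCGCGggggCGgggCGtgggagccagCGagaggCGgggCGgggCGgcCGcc
Mcl1: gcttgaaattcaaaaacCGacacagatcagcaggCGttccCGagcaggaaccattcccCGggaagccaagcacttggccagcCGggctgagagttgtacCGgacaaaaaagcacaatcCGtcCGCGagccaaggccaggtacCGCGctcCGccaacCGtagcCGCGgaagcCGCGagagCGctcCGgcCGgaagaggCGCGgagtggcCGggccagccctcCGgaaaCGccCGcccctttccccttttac
The Bbc3 window held 27 CG dinucleotides and the Mcl1 window 26, more than in 91.4% and 90.4% of the 32851 promoter windows of this length, whose median was 6. The letters of the GC box (GGGCGG, both strands, overlaps allowed) occurred 5 times in the Bbc3 window and once in that of Mcl1, and 32.7% of all windows held at least 1. The search covered 15 windows of 9 members, which include Bax and leave out Pmaip1, and 10 of the 15 held a GC box. The forkhead letters GTAAACA, found in 3.17% of all windows, occurred once in the second Bbc3 window and once in the first Bcl2l11 window. The letters TTCNNNGAA, bound by STAT factors, occurred in none of the 15, and in 7.02% of all windows. Among the 15, the p53 half-site was found in the Bax window only, and 7.13% of all windows held it. The Pmaip1 promoter was left out of these windows, so nothing is reported here of its p53 half-sites. CACGTG, an E-box, occurred once in the third Bbc3 window and once in that of Bax, and 6.02% of all windows held it. These matches describe letters, and no binding was measured.

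Bcl2 was somewhat lower on TKO by 4 of its 5 probe sets. The Bcl2 protein sequesters BH3-only proteins and keeps Bax and Bak1 inactive. The brightest probe set (1457687_at) read 1871 on DKO and 1519 on TKO, a log2 ratio of -0.30. The next 3 of the lower ones read 730.3 and 485 (1437122_at, -0.59), 310.4 and 186 (1422938_at, -0.74), and 152 and 116 (1443837_x_at, -0.39). The remaining probe set, 1440770_at, went the other way, from 579 to 639.9 (0.14). None reached 2-fold, and the median over the 5 was -0.39. Their SD of 0.34 exceeds the median SD of 0.24 among the 386 genes with at least 5 measured probe sets, so the probe sets of Bcl2 disagreed on the size more than is typical.

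Mcl1 was higher on TKO by every probe set, though by less than 2-fold. Mcl1 is a short-lived survival protein on which lymphoid progenitors depend. Its brightest probe set (1437527_x_at) read 4847 on DKO and 6261 on TKO, 1.29-fold higher. A second, 1448503_at, read 4031 and 5691, 1.41-fold higher, and the dimmest, 1416881_at, read 716 and 991, 1.38-fold higher. The 6 log2 ratios lay between 0.35 and 0.50 with an SD of 0.06, beside a median SD of 0.25 among the 146 genes with at least 6 measured probe sets. In 9.59% of those genes all ratios were above 0, and in 8.22% all were below 0. The Mcl1 probe sets 1437527_x_at, 1456243_x_at and 1456381_x_at are of a type prone to cross-hybridisation. Whether the 6 read separate sequence was not checked. Without the _x_at and _s_at types the brightest Mcl1 probe set gave 0.50. The log2 ratio of 0.37 at the brightest probe set exceeded that of 84.8% of measured genes, so that Mcl1 stood inside the range common to these arrays.

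Bcl2l1, whose long form Bcl-xL protects the later double-positive thymocytes, showed almost the same level on both arrays. Its one measured probe set (1420888_at) read 646 on DKO and 594 on TKO, a log2 ratio of -0.12. The other 3 read 13.0, 9.43 and 2.91 on DKO and 43.4, 54.5 and 28.5 on TKO. All of these lie under the floor, where a signal has no order, so their increase was not counted. Among the 3 survival genes the arrays thus gave a lower reading for Bcl2, a higher one for Mcl1 and a near-equal one for Bcl2l1, none past 2-fold.

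**Figure D2:**
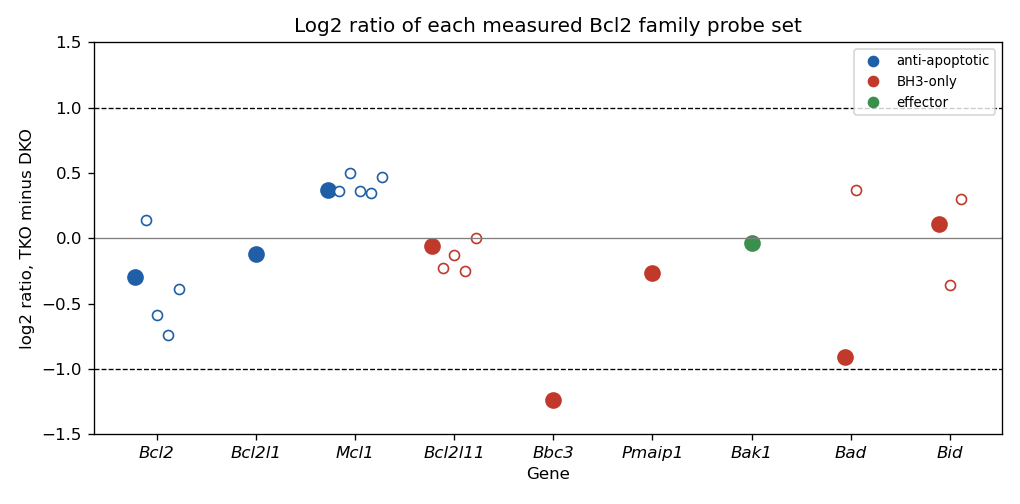
Log2 ratio (TKO minus DKO) of each measured probe set of the 9 members, with filled points for the brightest probe set of a gene, open points for the others, and colours for the gene's role. Dashed lines mark 2-fold. The 6 Mcl1 points lie between 0.35 and 0.50, the 2 Bad points fall on opposite sides of 0, and Bbc3 at -1.24 is the point past 2-fold.

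Bbc3 showed the largest difference of the 9 members. Puma, its product, binds all the survival proteins and is the main p53-induced killer in thymocytes. Its single probe set (1423315_at) read 347 on DKO and 147 on TKO, 2.36-fold lower (log2 ratio -1.24), and 0.213% of measured genes had a lower ratio. No second probe set stood beside it. Both signals were below the 75th percentile of their array (417 and 431), so with that floor Bbc3 had no ratio. Under the 6 other alternative settings its log2 ratio ran from -1.30 to -1.20. Among these, the lower floor, the mean over probe sets and the removal of _x_at and _s_at probe sets could not change it. Its single probe set is of neither type and was above the floor on both arrays.

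Bad gave opposite readings. Bad is a sensitiser that binds Bcl2 and Bcl-xL and is switched off by growth-factor kinases. The brightest probe set (1416582_a_at) read 892 on DKO and 475 on TKO, 1.88-fold lower (log2 ratio -0.91), and the second (1416583_at) read 555 and 716, 1.29-fold higher (0.37). The SD of the pair was 0.90, beside a median of 0.19 among 5320 genes with at least 2 measured probe sets. As the mean of both, Bad had a log2 ratio of -0.27, so no direction can be given for the gene as a whole.

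Bcl2l11, the BH3-only activator that removes self-reactive thymocytes, was nearly level. Its 5 measured probe sets ran from 118 to 3326 on DKO and from 117 to 3191 on TKO. The brightest (1456005_a_at) gave a log2 ratio of -0.06 and the lowest ratio was -0.25, at 1456006_at (432 to 364). Among genes with at least 5 measured probe sets, 12.7% had all ratios below 0, as Bcl2l11 did; all 5 differences were at most 1.19-fold.

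Pmaip1, whose product Noxa neutralises Mcl1 and is, like Puma, induced by p53, read 888 on DKO and 734 on TKO at its single probe set (1418203_at, log2 ratio -0.27). Bid links death receptors to mitochondria once caspase-8 has cut it. Its brightest probe set (1417045_at) read 1839 and 1989 (0.11), and its 2 dimmer ones read 166 and 204 (0.30) and 241 and 188 (-0.36). The 5 BH3-only genes thus held the member past 2-fold, a gene with conflicting probe sets, and 3 genes with log2 ratios between -0.27 and 0.11.

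Bak1, the effector that oligomerises in the mitochondrial membrane, read 541 on DKO and 524 on TKO (1418991_at, log2 ratio -0.04). A second probe set (1425716_s_at) was below the floor on both arrays, at 24.5 and 51.8.

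**Figure D3:**
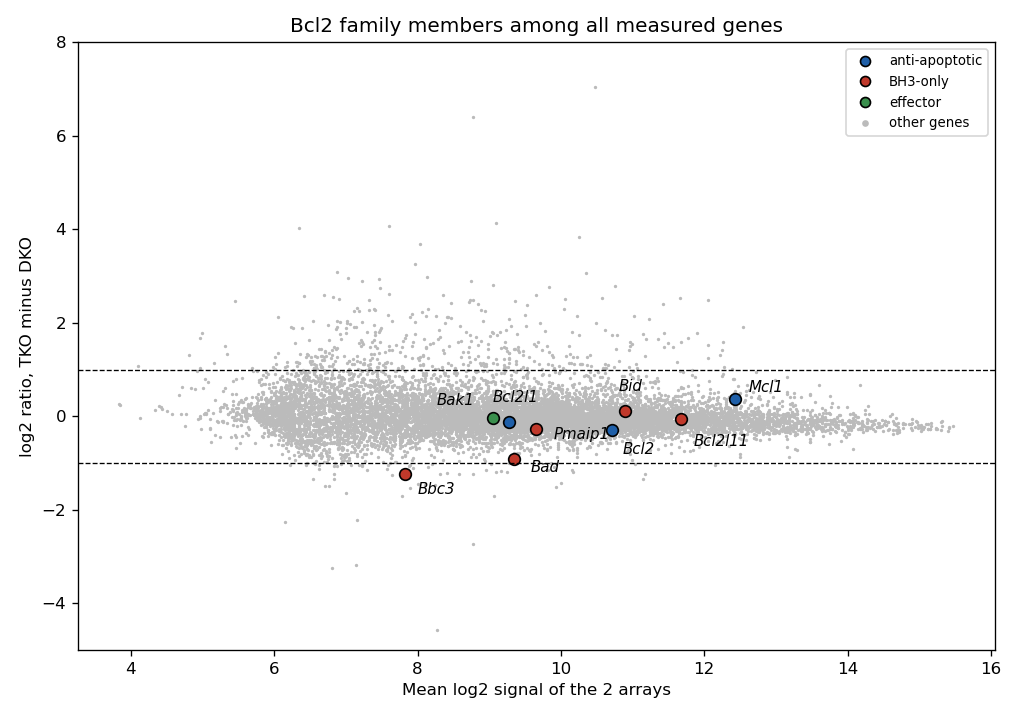
Log2 ratio (TKO minus DKO) against mean log2 signal for the 11280 genes measured on at least 1 array, in grey, with the 9 Bcl2 family members in the colours of their roles. Dashed lines mark 2-fold. Most members lie within the main cloud, and Bbc3 and Bad lie at its lower edge, with 0.213% and 0.745% of genes below them.

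In the rest of the death and survival machinery few genes passed 2-fold, as among all measured genes. The 6 lists written for it held 106 genes, of which 94 had a probe set and 87 were measured: 1 was at least 2-fold higher, 0 were lower and 86 were not counted either way, some of them, such as Tnf, with a bound only. Their median log2 ratio was -0.07. The background shares of 3.58% higher, 0.532% lower and 53.5% below 0 apply to each list that follows.

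Among the other Bcl2 relatives, 10 of 19 listed genes were measured, 1 of them higher and 0 lower, with a median of -0.23. The higher gene was Bnip3, a hypoxia-induced receptor for mitochondrial autophagy, which read 208 on DKO and 530.1 on TKO (2.55-fold, log2 ratio 1.35); with the floor at the 75th percentile its log2 ratio was a bound, at least 0.35. Bmf, a BH3-only protein held at the dynein light chain, read 1136 and 2164 (log2 ratio 0.93), and its second measured probe set gave 0.52 or more. Bok, a Bax-like effector, read 292 and 147 (-0.98), at the edge of the rule. Bik, a BH3-only protein of the endoplasmic reticulum, read 87.2 and 128 (0.55), close to the floor. Hrk, another BH3-only gene, was above the floor on DKO only, at 83.9 and 41.8. None of Bmf, Bik and Hrk was counted at 2-fold.

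Downstream, all 18 apoptosome and caspase genes with a probe set were measured and none passed 2-fold (median -0.05). Birc3 (cIAP2), an inhibitor of apoptosis under NF-kB control, came closest at 728 and 1387 (0.93). Dffb, the caspase-activated DNase, read 529.7 and 824 (0.64), but its second probe set gave -0.09. Casp9, the initiator caspase of the apoptosome, read 203 and 288 (0.51). The executioner Casp6 read 2159 and 1604 (-0.43), but its second probe set gave 0.01.

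The death receptor list had a median of 0.19 over 12 measured genes, with 0 past 2-fold either way. Cflar, which blocks caspase-8, read 626 and 939 (log2 ratio 0.59), with 4 measured probe sets from 0.04 to 0.60. Ltbr read 127 and 198 (0.64), and Fasl, the ligand of Fas, read 164 and 204 (0.31). The second measured probe set of Fasl gave 0.85 with the floor applied. Tnf was above the floor on TKO only, at 25.2 and 86.2, a bound of at least 1.25-fold higher.

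Genes of interleukin-7 and survival signalling, which act upstream of Bcl2 and Mcl1, had a median of 0.00 over 16 measured genes with none past 2-fold. Il7r, the receptor chain for interleukin-7, was higher by both probe sets: the brighter read 5159 on DKO and 7665 on TKO (log2 ratio 0.57), and the other gave 0.68. Pim2, a kinase that phosphorylates Bad, read 269 and 436 (0.70). Foxo1, a transcription factor that maintains Il7r, read 764 and 1101 (0.53), and Jak3, the kinase on the common gamma chain, read 106 and 152 (0.52). These 4 are the largest ratios of the list, in which 8 of the 16 were below 0, among them Foxo3 at -0.39 and Stat5a, which encodes a transcription factor downstream of the receptor, at -0.28.

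Genes that turn over Mcl1 or bind BH3-only proteins had a median of -0.13 over 15 measured genes, 13 of them below 0 (53.5% among all measured genes) and none past 2-fold. That share was not matched for signal, and several of these genes were among the bright ones. After a smooth trend of ratio over signal was subtracted (lowess), the list median was -0.05 and that of all measured genes 0.01. Huwe1, a ubiquitin ligase for Mcl1, read 2445 and 1797 (log2 ratio -0.44), with 5 probe sets from -0.44 to 0.22. Mapk9, a stress kinase that acts on Bim, read 1169 and 874 (-0.42), with 3 probe sets from -0.42 to 0.06. The 14-3-3 genes Ywhab and Ywhaz, whose products hold phosphorylated Bad in the cytosol, had brightest ratios of -0.30 and -0.27, but dimmer probe sets of each were above 0, at up to 1.22 and 0.57.

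The p53 list had a median of -0.18 over 16 measured genes, with 10 below 0 (53.5% among all measured genes) and none past 2-fold. Gtse1, a p53-binding protein of dividing cells, read 578 and 318 (log2 ratio -0.86), Zmat3 725 and 428 (-0.76), and Ccng1 6533 and 4199.8 (-0.64). The 3 measured probe sets of Ccng1 ran from -0.64 to -0.15. Sesn1 went the other way at its brightest probe set, from 1389.8 to 2545 (0.87), though another of its 4 gave -0.18. Of the p53-induced BH3-only genes Bbc3 and Pmaip1, Bbc3 passed 2-fold and Pmaip1, at -0.27, did not. Cdkn2a, whose Arf product stabilises p53, was itself at least 9.47-fold lower on the TKO array, and its part in these values was not tested.

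**Figure D4:**
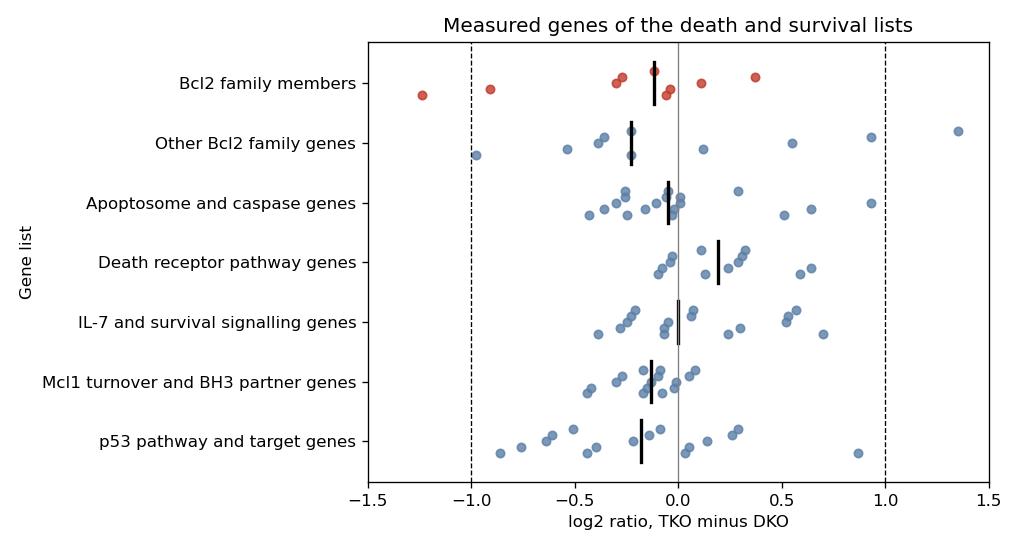
Log2 ratio (TKO minus DKO) of the brightest probe set of each measured gene in the Bcl2 family and in the 6 lists around it; 1 point is 1 gene, black bars are list medians and dashed lines mark 2-fold. Bbc3 at -1.24 and Bnip3 at 1.35 are the points past 2-fold, and list medians run from -0.23 to 0.19.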

How the data were processed

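RNA was labelled from 6 ug of total RNA per sample, per the labels' protocols. The authors deposited 1 intensity per probe set on a linear scale, made with MAS5 per the submitters' processing notes, which give no version or settings. MAS5 scales whole arrays to a common level, and the 2% trimmed mean of the signals was 497 on each. Probe sets were named from the platform annotation: 34945 of 45037 had 1 gene, 932 had several and were not used, and 9160 were not listed and stay unnamed. Of those with 1 gene, 99.4% matched a RefSeq table (GRCm38.p6) by Entrez ID. Signals below the array's median were raised to it. Genes below it on both arrays (6913 of 18193) have no ratio, and a gene above it on 1 array alone has a bound, written as at least. With 1 array per genotype, any batch cannot be told apart from genotype, and the number of arrays limits the precision. Promoter sequences are RefSeq's.

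Values were recomputed with log2 ratios centred on 0, after quantile normalization, after subtracting a lowess trend (span 0.3), with floors at the 25th and 75th percentiles, as the mean over probe sets, and without probe sets prone to cross-hybridisation (_x_at, _s_at). The members and lists were chosen with earlier results of these data known. The text names every member, and from each list the 4 measured genes with the largest absolute log2 ratio plus any other past 2-fold, up to 6. Marker, targeted and sex-linked genes are a selection from fixed lists. Foxo3, Stat5a and Hrk fall outside this rule and were chosen after their values were seen. Relb, Rel, Nfkb2, Rela, Nr4a3 and Nr3c1, from the genes added after the data had been seen, also fall outside it. Calculations used Python 3.11.15, numpy 2.4.6, pandas 2.3.3 and statsmodels 0.14.6, with plots in matplotlib 3.10.9, and the procedure was tested on simulated data.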

Additional observations from a re-analysis of the deposited data

How the results depend on the processing

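Each member kept the sign of its log2 ratio under all 7 alternatives that gave it a value, but most of these use the same brightest probe set. Bak1 and Bcl2l11 came as near to 0 as -0.01 and Bid as near as 0.02. For Bad the kept sign gives no direction, since its 2 probe sets disagreed. With the floor at the 75th percentile, 0 members were at least 2-fold lower, since Bbc3 was below that floor on both arrays. That floor also left 0 pathway genes past 2-fold higher, and 2.04% of all measured genes higher and 0.195% lower. With the floor at the 25th percentile 6.06% were higher and 2.73% lower, and the pathway lists held 3 genes higher and 2 lower. Quantile normalization and lowess each put 1 pathway gene, Bok, past 2-fold lower (log2 ratio -1.04 after quantile normalization). At the 75th-percentile floor the medians of the other Bcl2 relatives and of the death receptor list changed sign, to 0.12 and -0.03. The floor, which stands in for detection calls, limits what can be said of dim probe sets. No paired analysis was possible because each genotype has 1 array.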

Other observations

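A further 15 genes were looked at after the data had been seen: receptors that sustain B cells, NF-kB subunits and partners, and nuclear receptors tied to thymocyte death. Of the 13 measured, 2 were at least 2-fold higher on TKO (3.58% among all measured genes), 0 were lower (0.532%) and 11 were not counted either way; the median log2 ratio was 0.51. Tnfrsf13c, the BAFF receptor of B cells, read 270.5 on DKO and 831 on TKO (3.07-fold higher), and Tnfrsf13b (TACI) read 1467 and 2901 (log2 ratio 0.98). Bcl3, a nuclear partner of NF-kB, was below the floor on DKO at 60.7 and read 169 on TKO, at least 2.45-fold higher. Relb read 94.2 and 151 (0.68), Rel 42.1 and 97.8 (at least 0.51) and Rela 1651 and 1842 (0.16). Nfkb2 read 437 and 292 (-0.58) at its brightest probe set, but its second measured probe set gave 0.18. Nr4a1 (Nur77), induced by antigen receptor signals together with Bim, read 237 and 434 (0.87), and Nr4a3 read 100.3 and 172 (0.78). Nr3c1, the glucocorticoid receptor, was near level at 5149 and 4577 (-0.17). The B lineage markers were higher on the same array, and their part in these values was not tested.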
